A study of Mus musculus with 6 samples.

Results

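The genes described here are 32 genes of DNA replication and mitosis: cyclins and cyclin-dependent kinases, E2F transcription factors, proteins that license and fire replication origins, the MCM helicase, enzymes of DNA synthesis, and kinases, checkpoint and chromosome proteins of mitosis. They were chosen by name, and all 32 were found among the 21887 protein-coding genes on the assembled chromosomes of the mouse build GRCm38.p6, the assembly behind mm10. The data were peak lists of DNA captured with the long non-coding RNA LncMyoD by ChIRP, in which biotin-labelled DNA probes pull down an RNA with the chromatin attached to it. The cells were primary C57BL/6 myoblasts from skeletal muscle, turned into myotubes by 2 days in DMEM with 2% horse serum. The 6 libraries formed 3 groups of 2 replicates, captured with the odd probe pool (LncMyoD_odd), with the even probe pool (LncMyoD_even), or taken as input without a target (LncMyoD_Input). Undifferentiated cells were not analysed here, and all groups shared the same cells and medium.

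The deposited results were 1 peak list per replicate. Each list carries a name that the odd, even and input libraries of that replicate share, so neither the probe pools nor the input could be set apart, and no error can be given for a single peak. Whether replicates 1 and 2 came from different cultures is not stated in the labels. The list of replicate 1 held 157214 peaks and that of replicate 2 held 179630. Overlaps of at least 1 bp joined them into 97493 shared regions, each a union of peaks with at least 1 from each list. The fold enrichment of a peak is the authors' ratio over the background estimated by the peak caller, and sequencing depth is not given in the sources used here.

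Replication starts when the origin recognition complex, CDC6 and CDT1 load the MCM helicase onto DNA, and CDC45 and the GINS complex then activate it. Cyclin E and cyclin A with CDK2 drive cells into and through S phase, and cyclin B with CDK1 drives mitosis. E2F factors switch on the S-phase genes, while many mitotic genes are controlled through CCAAT boxes and CHR elements, short sequences that recruit the NF-Y and DREAM or MuvB complexes. Myoblasts leave the cell cycle as they fuse into myotubes, and these genes are known to be shut down then. LncMyoD is known as a MyoD-activated RNA that acts in this exit from the cell cycle. The lists give the position of DNA and hold no expression values.

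The first question was how many of these genes carried captured DNA. A shared region lay inside the gene or within 5 kb of it at 21 of the 32 genes (65.6%, 95% exact binomial interval 46.8 to 81.4%, with genes taken as independent draws). The same was true of 70.3% of all protein-coding genes. The share of genes with a region rose with gene length, from 32.3% among the shortest genes to 98.5% among the longest. The 32 genes were therefore also set beside genes of their own length. With protein-coding genes divided into 10 classes of equal size by length, the share expected for genes as long as these was 69.2%, or 22.1 of 32. The share of the replication and mitosis genes therefore lay near the background. The 21 genes had 41 regions in all, no region was counted for more than 1 gene, and the length classes gave 44.7 regions (ratio 0.917). Because the genes were chosen with results of these lists known, counts are given here without a test.

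The count in each replicate alone was also below the background. A peak of replicate 1 lay within 5 kb of 24 genes (75.0%), against 79.1% of all protein-coding genes and 79.7% from the length classes. A peak of replicate 2 also lay within 5 kb of 24 genes (75.0%), against 82.7% and 84.2%. Inside the gene itself, 15 genes (46.9%) held a shared region, against 56.4% of all protein-coding genes and 53.3% from the length classes. Within 1 kb it was 16 of 32 (against 59.8% of all and 57.3% from the length classes) and within 10 kb 24 (75.0%, against 79.6% and 79.7%). The intervals of all these shares included the background, as the plot of shares shows. A peak of either list lay within 5 kb of 26 genes (81.2%, against 86.6% of all). At the other 6, Ccna2, Cdt1, Mcm7, Pcna, Mki67 and Bub1, there was none. Their number by the length classes was 3.66, and 13.4% of all protein-coding genes had none.

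**Figure D1:**
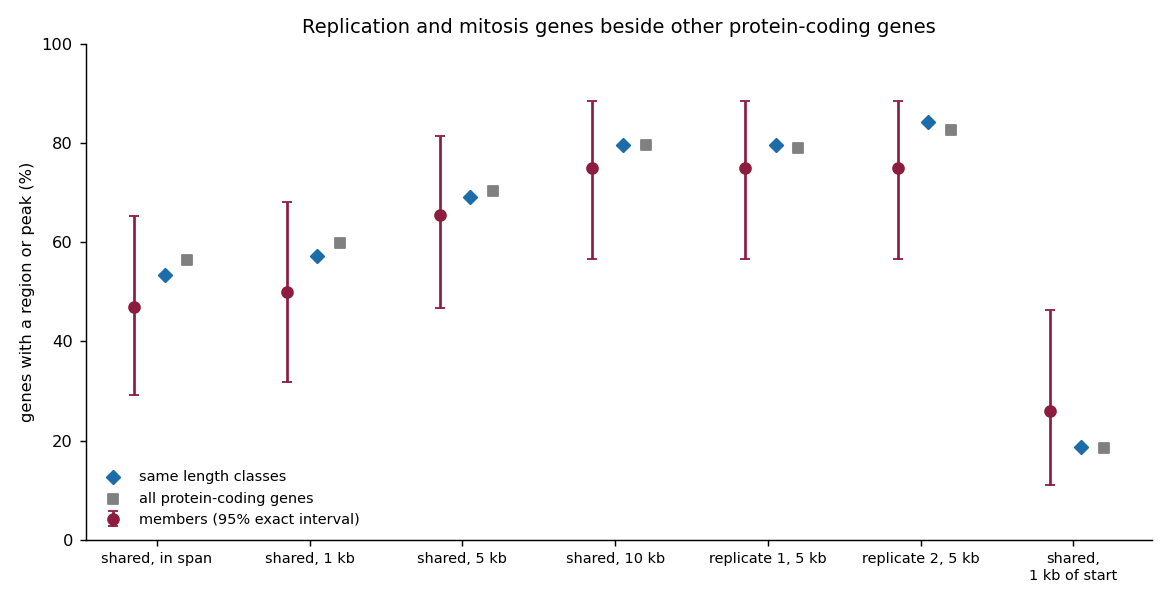
Share of genes (percent, vertical axis) with a shared region, or a peak of one replicate, inside the gene or within the stated distance. Circles are the 32 genes (27 for the distance to the start) with 95% exact intervals, diamonds the share in genes of the same length classes, squares all protein-coding genes. At 5 kb the circle stands at 65.6%, the diamond at 69.2% and the square at 70.3%.

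The best regions of these genes were weaker in the median than those of all genes with a region. To order shared regions, the best peak of each was given its percentile of −log10 q within its own list, and both percentiles were averaged. The best region of the 21 genes had a median percentile of 69.6 (quartiles 42.2 and 83.1), and that of the 15390 protein-coding genes with a region had a median of 74.1 (quartiles 49.1 and 90.8). Inside genes the medians were 55.5 and 73.7, and with a reciprocal overlap of 50% they were 52.2 and 68.8. The order was reversed within 10 kb, at 78.5 and 76.0. It was also reversed among the 10000 peaks of highest −log10 q of each list, at 65.3 (over 2 genes) and 55.4. These medians were not matched for length: the 21 genes had a median length of 14697 bp, and all genes with a region 25058 bp. The median fold of the best region was 16.7 in replicate 1 and 17.9 in replicate 2 for these genes, against 19.8 and 21.6 for all such genes. Both replicates ordered the best regions alike, with a Spearman correlation of percentiles of 0.784 and a Pearson correlation of 0.782 over 21 regions. Over all 97493 regions these were 0.767 and 0.728. The regions were chosen for being in both lists, and the correlations are descriptions. When just the 10000 peaks of highest −log10 q of each list were used, 2 of the 32 genes had a shared region, Ccnb2 and Cdc45, against 13.5% of all protein-coding genes and 2.99 of 32 from the length classes. A region at or above the percentile 90 lay at 3 (these and Plk1), against 18.7% of all and 4.45 of 32 from the length classes. At percentile 95 the count was 2 (length classes, 2.32), and at percentile 98 it was 1 (length classes, 0.921).

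**Figure D2:**
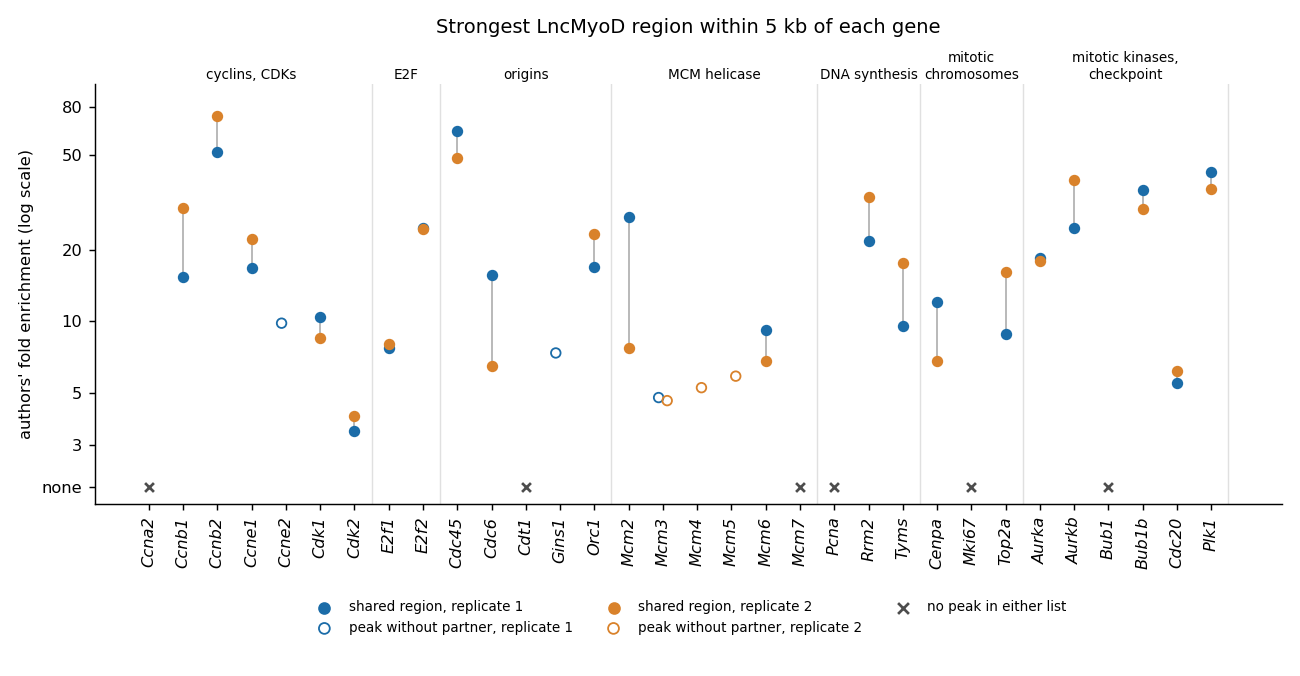
The authors' fold enrichment (log axis) of the strongest shared region within 5 kb of each gene, in replicate 1 and replicate 2, with genes grouped by role. Open circles are the strongest peaks at genes where no peak of the other list overlapped, and crosses mark the 6 genes without a peak in either list. Ccnb2 (51.4 and 72.9) and Cdc45 (63.5 and 48.5) stand highest.

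Regions at gene starts were examined next, since the promoters of these genes are where E2F factors and the DREAM complex act. A promoter entry, which gives strand and start, was at hand for 27 of the 32 genes, and Ccna2, Ccne2, Aurkb, Gins1 and Mcm4 had none. A shared region lay over the start or within 1 kb of it at 7 of 27 genes (25.9%, 95% exact interval 11.1 to 46.3%), against 18.6% of 17492 protein-coding genes and 18.8% from the length classes. At 500 bp the count was 4 of 27 (14.8%, against 14.8% of all) and at 2 kb 9 of 27 (33.3%, against 24.9%), the additions being Bub1b and Cdk2. In single lists, 7 of 27 starts lay within 1 kb of a peak of replicate 1 (against 23.6% of all) and 8 of 27 of replicate 2 (against 27.3%). A region covered the start itself at 2 genes, Rrm2 and Cdc45 (7.41%, against 8.83%). The map of regions along the genes shows no common position.

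Rrm2, which encodes the small subunit of ribonucleotide reductase, had the strongest region over a start. It ran from -818 to 732 bp of the start (chromosome 12, 24707436 to 24708986), with folds of 21.7 and 33.4. Its summits in the lists lay close together, at -252 bp in replicate 1 and -271 bp in replicate 2. The region over the start of Cdc45 ran from -260 to 662 bp, had folds of 9.92 and 9.27, and also overlapped Ufd1, a neighbouring gene whose product works in ubiquitin-dependent protein breakdown. Ccnb2 had a region from -540 to -19 bp (20.2-fold and 10.2-fold) and Ccne1 one from -1071 to -95 bp (16.7-fold and 22.2-fold). The remaining 3 were weaker: E2f1 from -832 to -560 bp (4.41-fold and 4.32-fold), Mcm6 from 634 to 1244 bp (9.18-fold and 6.79-fold) and Mcm2 from 764 to 1147 bp (6.61-fold and 3.30-fold). Those of E2f1 and Mcm2 were among the weaker shared regions of the genome, at percentiles 1.85 and 6.47.

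The bases before the start are printed for 4 genes with a shared region within 1 kb of the start (Rrm2, Ccnb2, Ccne1, Mcm6) and for 3 without one (Mcm3, Bub1, Cdt1), to set their bases side by side. The regions of Rrm2, Ccnb2 and Ccne1 overlapped the printed bases, and that of Mcm6 lay after the start and did not. They are the 250 bases before the start from RefSeq, build GRCm38.p6, written 5′ to 3′ on the strand of the gene. Capitals mark matches on either strand to E2F words (TTGGCGC, with the variant TTCCCGC and the variant TTCGCGC), CHR words (TTTGAA and the variant TTCGAA) and the CCAAT box.
Rrm2 (chr12:24708004-24708253, plus strand): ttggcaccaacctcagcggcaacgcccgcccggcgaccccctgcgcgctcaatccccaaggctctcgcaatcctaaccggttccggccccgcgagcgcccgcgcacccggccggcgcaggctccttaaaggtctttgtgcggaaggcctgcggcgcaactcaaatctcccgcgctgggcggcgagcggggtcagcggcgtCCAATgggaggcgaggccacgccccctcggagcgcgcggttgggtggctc
Ccnb2 (chr9:70421555-70421804, minus strand): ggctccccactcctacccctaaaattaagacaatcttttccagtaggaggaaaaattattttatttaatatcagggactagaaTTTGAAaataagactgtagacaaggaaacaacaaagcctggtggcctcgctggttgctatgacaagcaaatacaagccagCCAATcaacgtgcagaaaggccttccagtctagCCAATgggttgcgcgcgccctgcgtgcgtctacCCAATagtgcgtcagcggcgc
Ccne1 (chr7:38107491-38107740, minus strand): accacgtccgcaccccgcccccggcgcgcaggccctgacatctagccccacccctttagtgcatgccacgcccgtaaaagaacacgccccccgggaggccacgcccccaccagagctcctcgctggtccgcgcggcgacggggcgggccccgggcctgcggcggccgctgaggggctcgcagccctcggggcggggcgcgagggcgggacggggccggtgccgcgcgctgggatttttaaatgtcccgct
Mcm6 (chr1:128359706-128359955, minus strand): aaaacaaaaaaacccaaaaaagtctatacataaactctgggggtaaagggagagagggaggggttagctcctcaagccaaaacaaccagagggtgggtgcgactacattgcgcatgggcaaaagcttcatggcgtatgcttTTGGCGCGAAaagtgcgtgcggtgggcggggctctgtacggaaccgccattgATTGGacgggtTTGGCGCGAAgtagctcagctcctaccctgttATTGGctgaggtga
Mcm3 (chr1:20820313-20820562, minus strand): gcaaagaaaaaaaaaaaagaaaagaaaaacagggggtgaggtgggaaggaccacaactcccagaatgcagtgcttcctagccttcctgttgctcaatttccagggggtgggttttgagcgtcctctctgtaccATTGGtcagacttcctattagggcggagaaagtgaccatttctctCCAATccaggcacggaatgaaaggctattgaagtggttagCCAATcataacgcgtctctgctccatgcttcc
Bub1 (chr2:127831860-127832109, minus strand): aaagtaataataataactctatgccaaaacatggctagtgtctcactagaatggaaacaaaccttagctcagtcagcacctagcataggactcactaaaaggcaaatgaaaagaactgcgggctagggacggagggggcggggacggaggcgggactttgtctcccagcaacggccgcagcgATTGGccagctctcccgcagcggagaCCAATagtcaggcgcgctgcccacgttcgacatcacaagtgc
Cdt1 (chr8:122567765-122568014, plus strand): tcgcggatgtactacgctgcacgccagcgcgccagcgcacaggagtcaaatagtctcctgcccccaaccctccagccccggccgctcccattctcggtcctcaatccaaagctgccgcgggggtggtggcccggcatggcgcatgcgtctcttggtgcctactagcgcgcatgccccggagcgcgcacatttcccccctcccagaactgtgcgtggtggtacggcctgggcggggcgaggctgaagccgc
Among the genes whose region overlapped the printed bases, Ccnb2 held 3 CCAAT boxes and 1 CHR word, Rrm2 held 1 CCAAT box, and Ccne1 held none of these words. These counts are over the printed bases and not under the peaks. At Rrm2 the peaks of both lists covered all of these bases. At Ccnb2 the peak of replicate 2 began 217 bp before the gene, and all of its words lay nearer to the start, outside that peak. At Ccne1 the peak of replicate 1 began 281 bp before the gene, so only that of replicate 2 reached the printed bases. The Mcm6 promoter, outside its region, held 4 matches to E2F words, at a pair of places where 2 words overlap, and 2 CCAAT boxes. Without a region nearby, Mcm3 held 3 CCAAT boxes, Bub1 held 2 and Cdt1 none in these bases.

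Over the whole windows of 300 bases, 250 before to 50 after the start, 12 of 27 promoters held an E2F word (44.4%, against 10.4% of 17492 promoters of protein-coding genes). A CHR word was in 12 (44.4%, against 18.2%) and a CCAAT box in 22 (81.5%, against 39.2%). The SP1 word GGGCGG was in 22 (81.5%, against 45.9%), and CAGCTG, an E-box of the kind bound by MyoD, in 4 (14.8%, against 15.2%). The 27 promoters held a median of 24 CpG pairs (C followed by G), against 13 for all promoters. Their median GC content was 57.7%, against 56.3%. Every E2F word and the SP1 word contain a CpG, while CCAAT and CAGCTG contain none. The shares were not matched for CpG count, and whether it accounts for the E2F and SP1 differences was not tested. Genes with a shared region within 1 kb of the start held an E2F word at 1 of 7 promoters, a CHR word at 3 and a CCAAT box at 5. Those without one held an E2F word at 11 of 20, a CHR word at 9 and a CCAAT box at 17. The SP1 word was in 7 of 7 with a region and 15 of 20 without. Over all protein-coding genes, E2F words were in 11.3% of promoters with a region and 10.2% without, CHR words in 15.4% and 18.9%, CCAAT boxes in 37.6% and 39.5%, and the SP1 word in 53.8% and 44.1%. The median GC content was 57.3% with and 57.7% without a region for these genes, and 59.3% and 55.3% for all genes. Word matches are descriptions and not sites.

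**Figure D3:**
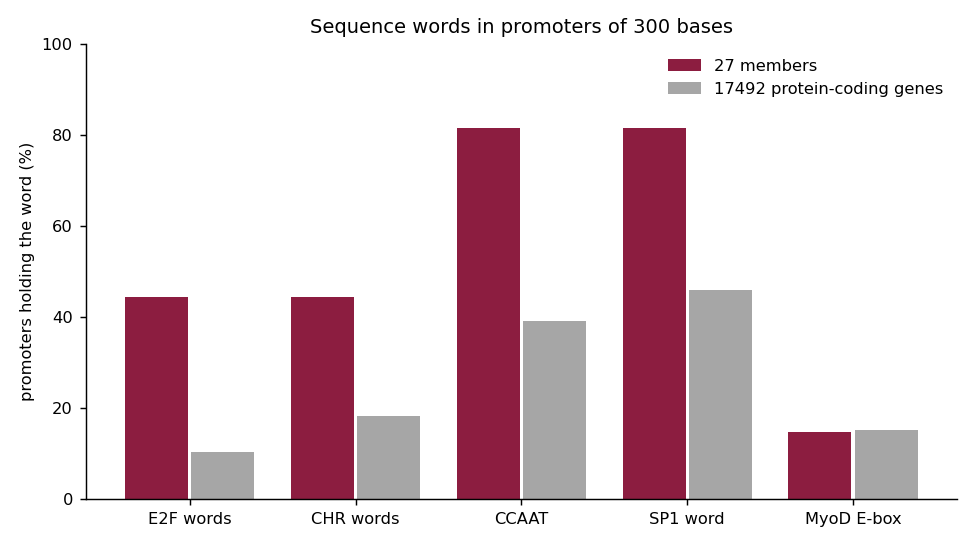
Share of promoters of 300 bases (percent) that hold each sequence word on either strand, for the 27 genes with a promoter entry and for 17492 protein-coding genes. E2F words stand at 44.4% against 10.4%, CCAAT at 81.5% against 39.2%, and the MyoD E-box at 14.8% against 15.2%. The promoters were not matched for CpG count.

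Among the 7 cyclin and kinase genes, 5 had a shared region within 5 kb (length classes, 4.65), with 9 regions between them. Ccnb2, the gene of cyclin B2, had the strongest region of the whole set by rank, over the end of the gene (chromosome 9, 70407523 to 70409751, 2229 bp wide). Its folds were 51.4 in replicate 1 and 72.9 in replicate 2, at place 1915 of 97493 regions, and a region inside the gene had folds of 14.7 and 15.4. The list of replicate 2 ranked its peak 253 and that of replicate 1 ranked it 4275. The best region of Ccnb1, which encodes cyclin B1, lay 3387 bp beyond its end and overlapped Cenph, a kinetochore protein gene (15.4-fold and 30.0-fold). Cdk1, the mitotic kinase gene, had 3 weaker regions, the best at 10.4-fold and 8.53-fold inside the gene. Cdk2 had a single shared region of 3.46-fold and 3.99-fold, 1655 bp before its start and overlapping Pmel, among the weakest shared regions in the genome (percentile 0.375). Replicate 2 also had stronger peaks without a partner at Cdk2, of 14.3-fold at 1920 bp from the gene and of 9.88-fold overlapping the gene. Cyclin E genes differed from each other: Ccne1 had the start region above, while Ccne2 had 3 peaks in replicate 1, up to 9.81-fold, and none in replicate 2. At Ccne1, a peak of 30.5-fold inside the gene (38104823 to 38105915) in replicate 1 had no partner in replicate 2. It was the strongest unpartnered peak of the set. Ccna2, the gene of cyclin A2, had no peak, and the nearest shared region was 18035 bp away.

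Both E2F genes of the set had regions (length classes, 1.37 of 2). E2f2 had a region of 24.6-fold and 24.4-fold, 2999 bp beyond its end, and another of 15.1-fold and 11.1-fold inside the gene. The folds of the first were nearly equal in both lists. E2f1 was weaker, with 7.71-fold and 8.03-fold inside the gene and the region before its start described above.

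Of the 5 genes of origin licensing and firing, 3 had a shared region (length classes, 3.63). Cdc45, which encodes the helicase activator, had 5 regions, more than any other gene of the set, with 7 peaks in replicate 1 and 10 in replicate 2. The strongest lay inside the gene, 2895 bp wide (chromosome 16, 18788487 to 18791381), at 63.5-fold and 48.5-fold and place 2604. The other regions ranged from 4.66-fold to 9.92-fold in replicate 1 and from 4.40-fold to 13.9-fold in replicate 2. Orc1, the gene of the largest subunit of the origin recognition complex, had a region of 16.9-fold and 23.2-fold inside the gene and one of 5.51-fold and 11.4-fold near it. Cdc6 had 1 region inside the gene, at 15.6-fold in replicate 1 and 6.49-fold in replicate 2. Cdt1 had no peak within 5 kb. At Gins1, a subunit gene of the GINS complex, replicate 1 had peaks of 5.01-fold and 7.35-fold and replicate 2 had none.

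The 6 MCM genes, whose products form one ring-shaped helicase, were unevenly covered, with a shared region at 2 of 6 (length classes, 4.27). Mcm2 had 3, the best at 27.5-fold in replicate 1 and 7.72-fold in replicate 2, lying 2978 bp before the gene and overlapping Tpra1. Mcm6 had the region near its start. Mcm3 had a peak in each list (4.77-fold and 4.63-fold) at different places in the gene. Mcm4 and Mcm5 had 1 peak each, in replicate 2 alone, at 5.25-fold and 5.87-fold. Mcm7 had none, with the nearest shared region 10011 bp away. Counted by single lists, 3 of 6 MCM genes had a peak in replicate 1, against 79.1% of all protein-coding genes. In replicate 2 it was 5 of 6, against 82.7%, so there the count lay near the background.

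Among 3 genes of DNA synthesis, Rrm2 and Tyms had regions (length classes, 1.86). Tyms, the gene of thymidylate synthase, had 2 inside the gene, at 9.55-fold and 17.6-fold and at 14.3-fold and 7.41-fold. Pcna, which encodes the sliding clamp of the replication fork, had no peak in either list. The nearest shared region was 41358 bp from it, although 42 shared regions lay within 500 kb of it, close to the median of 43.0 for all protein-coding genes.

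Of 3 genes of mitotic chromosomes, 2 had a shared region (length classes, 2.22). Cenpa, the centromeric histone gene, had 1 inside the gene (12.1-fold and 6.79-fold). Top2a, the gene of DNA topoisomerase II alpha, had 1 at 2444 bp before the gene (8.81-fold and 16.1-fold). Mki67, the gene of the proliferation marker Ki-67, had no peak, and its nearest shared region was 11895 bp away.

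Of the 6 genes of mitotic kinases and the spindle checkpoint, 5 had a shared region (length classes, 4.14). Together they held 11, the most of any group in a raw tally not adjusted for group size or gene length. At Plk1, which encodes a polo-like kinase, the best region (42.6-fold and 36.1-fold) lay 2591 bp beyond its end and overlapped Ern2 (chromosome 7, 122172475 to 122173900, place 7056). Bub1b, which encodes the checkpoint kinase BUBR1, had a region of 35.6-fold and 29.7-fold in the first part of the gene, from 1173 to 2733 bp after the start. A further region of 22.4-fold and 17.0-fold lay near its other end. Aurkb, the Aurora B kinase gene, had one of 24.6-fold and 39.2-fold inside the gene, which is 6041 bp long. It also had peaks without a partner, of 13.6-fold in replicate 1 (69045478 to 69045811) and of 19.5-fold and 22.9-fold in replicate 2. The 22.9-fold peak (69045840 to 69046762) began just beyond the end of the 13.6-fold peak without touching it. The 3 regions of Aurka, the Aurora A gene, all lay beyond its end and overlapped Fam210b, the best at 18.4-fold and 17.9-fold. Cdc20, an activator of the anaphase-promoting complex, had 1 weak region at 4649 bp (5.51-fold and 6.18-fold), the farthest among those counted as best, while the nearest region of Cdt1 (5696 bp) and of Gins1 (6361 bp) fell just outside the 5 kb. Bub1, a paralogue of Bub1b, had no peak, and the nearest shared region was 30622 bp from it.

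**Figure D4:**
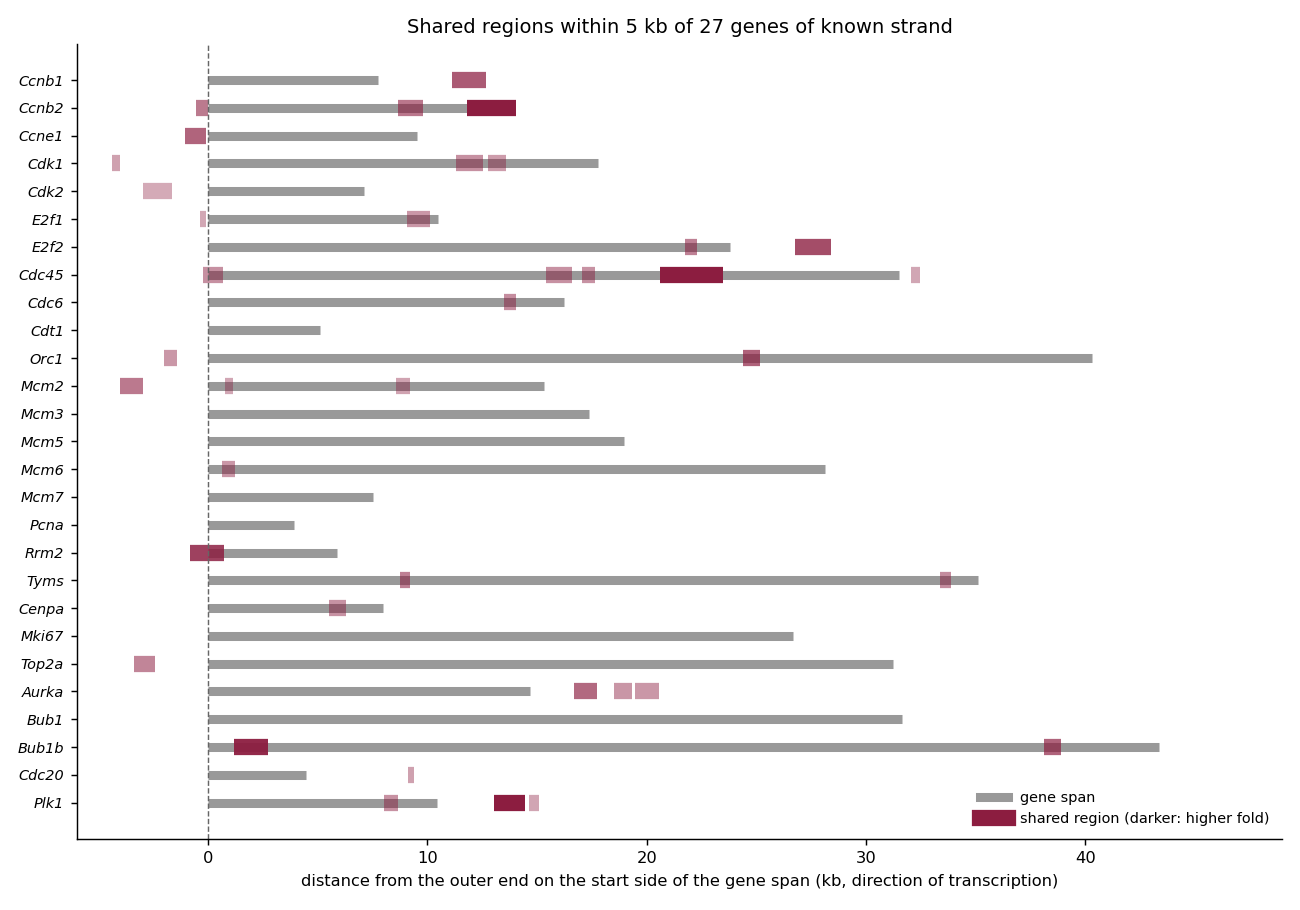
Shared regions (dark red, darker for higher fold) along the gene spans (grey) of the 27 genes of known strand, with distance in kb from the outer end on the start side. Regions lie before, over, inside and beyond the genes, and the 7 genes without any region are Cdt1, Mcm3, Mcm5, Mcm7, Pcna, Mki67 and Bub1.

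Some regions near these genes overlapped a neighbour. Of the 41 regions, 23 overlapped the gene itself and 18 lay beyond it, and 11 overlapped another protein-coding gene, tallies that were not set against all regions. The best region overlapped another protein-coding gene at 6 of 21 genes (Ccnb1, Cdk2, Mcm2, Aurka, Plk1 and Cdc20, 28.6%), against 15.3% of all genes with a region and 4.26 of 21 from the length classes. It lay beyond the gene at 9 of 21 (42.9%, against 31.3% and 8.01 from the length classes). At 6 of 21 genes no region touched the gene itself (Ccnb1, Ccne1, Cdk2, Top2a, Aurka and Cdc20), against 19.8% of all genes with a region and 5.13 from the length classes.

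Most peaks at these genes that occurred in one list alone were weak. Replicate 1 had 60 peaks at these genes, of which 44 (73.3%) had a partner in the other list, against 67.9% of all peaks near protein-coding genes. Replicate 2 had 72, of which 44 (61.1%) had one, against 56.6%. The unpartnered peaks had median folds of 6.27 and 6.02, and the partnered ones 9.37 and 10.2. As a measure of regional density, the median number of shared regions within 500 kb of the gene centre was 48.5, against 43.0 for all protein-coding genes. For the 11 genes without a region it was 41.0, against 37.0 for all genes without one.

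The other genes of these pathways were counted in the same way, from a list of 104 genes chosen by role. It covers the remaining origin, polymerase, clamp loader and nucleotide genes, cyclins D, E2F and MuvB partners, kinetochore, condensin and cytokinesis genes. A shared region lay within 5 kb of 77 (74.0%), against 70.3% of all protein-coding genes and 75.5% from the length classes. These 104 genes held fewer regions than their length classes gave, 151 against 212, and inside the genes 114 against 163. In single lists the gap was smaller, with 282 peaks within 5 kb against 333 in replicate 1 and 316 against 393 in replicate 2. The class of longest genes ran from 108526 to 2390387 bp, so these totals were matched for length only loosely. The strongest shared region lay within 5 kb of Cdca8, which encodes borealin of the chromosomal passenger complex (91.0-fold and 86.1-fold, place 16). Next was that within 5 kb of the GINS subunit gene Gins3 (84.8-fold and 65.5-fold, place 370). These regions were followed by those of the kinetochore scaffold gene Knl1 (73.8-fold and 64.9-fold) and of Rpa1, which encodes a subunit of the single-strand binding protein RPA (59.9-fold and 54.7-fold). Whether these regions lie inside the genes or overlap a neighbour is not given here. The region of Rpa1, the weakest of these, was at place 2157, between those of Ccnb2 and Cdc45.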

How the data were processed

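ChIRP libraries of LncMyoD and input were made by tagmentation and sequenced as paired reads of 100 bases, per the labels' protocols. Bowtie2 2.3.2, Picard 2.9.2, MACS2 2.1.1 and mm10 are named in the submitters' processing notes. How libraries were combined, and with which parameters and thresholds, is not given in the sources used here. For each peak, the authors deposited a fold enrichment (a ratio over estimated background), −log10 q and a summit offset in bp. The lowest −log10 q was 1.345 in list 1 and 1.324 in list 2. Tagmentation has sequence preferences that the lists cannot correct.

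Shared regions, genes within 5 kb and 10 length classes (members left out of each class) were computed with Python 3.11.15, numpy 2.4.6, pandas 2.3.3 and scipy 1.17.1, and plotted with matplotlib 3.10.9. The code was tested on simulated data. The gene table and promoters came from RefSeq, GRCm38.p6. The members and gene lists were chosen with earlier results of these data known. Named genes are all 32 members, the 4 other pathway genes with the best-placed region, and genes that a member's region overlaps. No test across samples was possible, and intervals cover counting error over genes alone. The alternatives were other windows, thresholds, overlap rules, single lists and length classes.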

Additional observations from a re-analysis of the deposited data

How the results depend on the processing

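No paired analysis was possible because each replicate has a single peak list, and no groups were compared. The count of 21 members stayed within 1.5 times under 12 of 13 alternatives, and its ratio to the length classes ranged from 0.668 to 1.03. Looser settings could pass this limit only if all 32 members had a region, so for them it says little. Among these alternatives, the use of 5 or 20 length classes could change the ratio alone and not the count. The exception, the 10000 strongest peaks, gave 2 members, 2 regions, 0 starts within 1 kb (no test was run) and 11 of the other pathway genes. Of the 21 genes, 17 kept a region under each of 4 stricter rules (a minimum −log10 q of 5, a minimum fold of 5, reciprocal overlap of 50% and summits within 200 bp). Ccnb1, Cdk2, Mcm2 and Top2a did not. The region total of 41 was 25 with reciprocal overlap, 23 inside genes, 27 within 1 kb and 60 to 72 in single lists. Starts within 1 kb of a region numbered 5 with the −log10 q minimum (length classes, 4.69) and 5 with the fold minimum (4.32). They numbered 6 with reciprocal overlap (3.22) and 6 with summits within 200 bp (3.80). Within 500 bp there were 4, and in single lists 7 to 8. The medians of best single peaks in each list had an SD of 1.45 between lists, which is not an error of the median for shared regions. The median percentile of the best shared region (69.6) became 68.1 with the −log10 q minimum, 64.5 with the fold minimum and 65.3 among the 10000 strongest peaks. It became 52.2 with reciprocal overlap, 57.5 with summits within 200 bp and 64.4 without the 1% of peaks of highest fold. It was 55.5 inside genes, 55.8 within 1 kb, 78.5 within 10 kb and 74.5 to 76.5 in single lists. For all genes, these medians were 73.1, 71.7, 55.4, 68.8, 71.0, 73.5, 73.7, 73.6, 76.0, 79.6 and 81.7 in the same order, so the members lay above all genes among the 10000 strongest peaks and within 10 kb. Members within 5 kb numbered 24 in either single list, and 77 other pathway genes became 91 to 96. With 32 genes, a share is known to about the width of its interval.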

Other observations

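Starts of the other replication and mitosis genes were seldom near a shared region. Of 83 with a promoter entry, 8 (9.64%) had one within 1 kb of the start, against 18.6% of all protein-coding genes and 16.3 genes from the length classes. A region covered the start at 2 of 83 (2.41%, against 8.83%). In single lists the difference was smaller: 18 of 83 in replicate 1 (21.7%, against 23.6%) and 16 of 83 in replicate 2 (19.3%, against 27.3%). The 32 genes described above did not share this, with 7 of 27 starts near a region, or 5 of 27 under the −log10 q or the fold minimum. Starts of the other genes were not recounted at these minimums. The comparison was noticed after the values were seen and was not tested.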
